A study of Homo sapiens with 74 samples.

Results

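SMARCA4 and ARID2 can both be lost from a cell in 2 ways: a line without SMARCA4 can be given a knockdown of ARID2, or a line without ARID2 can be given a knockdown of SMARCA4. The series holds 74 ATAC-seq libraries, and 4 of them carry such a combined loss in a knockout line. They are 2 libraries of SMARCA4 knockout cells with ARID2 knocked down, here called the SMARCA4 knockout route, and 2 libraries of ARID2 knockout cells with SMARCA4 knocked down, called the ARID2 knockout route. These 4 libraries were chosen by their labels and not by any measured value.

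All cells were HAP1, a near-haploid human line derived from a chronic myeloid leukaemia. ATAC-seq marks accessible DNA, because the Tn5 transposase inserts adapters where nucleosomes leave the DNA free. SMARCA4, also called BRG1, is an ATPase that drives the BAF (SWI/SNF) complexes, which slide and evict nucleosomes and keep enhancers and promoters open. ARID2 is found in PBAF alone, the variant that is also defined by PBRM1, whereas SMARCA4 serves PBAF and the other variants alike. SMARCA2 is the paralog that can take the place of SMARCA4 as the ATPase. Loss of ARID2 thus removes a part of 1 variant, and loss of SMARCA4 removes the motor of all variants unless SMARCA2 takes over.

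Other groups gave the points of comparison, with 2 libraries each. SMARCA4 knockout cells and ARID2 knockout cells with a control knockdown show the same lines without the second loss. Wild-type cells with both subunits knocked down show another way to the combined loss, and wild-type cells with a control knockdown show the cells without any loss. Wild-type cells with SMARCA4 alone or ARID2 alone knocked down complete the 16 knockdown libraries. A separate table holds the single knockouts without any knockdown: clones 4 and 6 of SMARCA4, clone 9 of ARID2 and wild type. The labels do not say which clone of a knockout was used for the knockdowns, nor how far a knockdown reduced its target. The route, the permanently lost gene and the clone therefore cannot be told apart. The labels describe the knockdown reagent as hairpin in one place and as siRNA in another, and the text says knockdown for both. No label ties the 2 libraries of a group to separate cultures, and each p-value therefore covers the spread among these libraries alone, which may be technical.

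Total counts were 12432292 and 6665670 in the SMARCA4 knockout route and 5355899 and 6654608 in the ARID2 knockout route, so replicate 1 held the deepest and the shallowest of the 16 knockdown libraries. Log2 accessibility correlated at r = 0.883 within the SMARCA4 knockout route, at 0.870 within the ARID2 knockout route and at 0.791 to 0.869 between them, across the 72808 regions of above-median accessibility. Regions are given in hg19, as the files give them. No gene annotation of that build was used here, so regions carry no gene names, and the loss of SMARCA4 or ARID2 itself was not checked.

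Between the routes, 3484 of 145617 regions differed at an adjusted p of 0.05 in edgeR's quasi-likelihood test with the replicate number as a block, which is 2.39% of those tested, and such regions are referred to as called. Of them, 2671 (1.83% of regions tested) were less accessible and 813 (0.558%) more accessible in the SMARCA4 knockout route, so that 76.7% of the called regions were lower there. At least 2-fold differences made up 3162 of the calls, 2403 lower and 759 higher. The median difference over all regions was -0.02 on the log2 scale. Without the block, 1261 regions were called, 939 of them lower. Without replicate 1 of the SMARCA4 knockout route 838 were called, 696 of them lower, and without replicate 1 of the ARID2 knockout route 957 were called, 634 of them lower. These are the deepest and the shallowest library, and the part of depth in the calls was not tested.

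The regions with the widest gap were those with almost no counts in the SMARCA4 knockout route and many in the ARID2 knockout route. At chr11:16841737-16842452, the SMARCA4 knockout route held 0.177 and 0 CPM (counts scaled to the size of the library), and the ARID2 knockout route 12.6 and 10.3. Its 2 counts against 134 give a ratio of 106 after scaling for depth (95% counting interval 28.8 to 884), which covers counting error only. This locus was at 0 in both SMARCA4 knockout libraries with control knockdown as well, at least 46.1-fold below the ARID2 knockout line (3 counts over the group as floor), and at 10.1 and 6.82 CPM in wild type. At chr9:106007563-106008141, the SMARCA4 knockout route held 0.354 and 1.07 CPM and the ARID2 knockout route 27.1 and 18.9. The fitted log2 difference there was -5.14 (SE 0.40, adjusted p = 1.5e-19), and all 4 values of the wild-type control and wild-type double knockdown lay between 16.3 and 29.9 CPM. A neighbour at chr9:106004185-106004819 also differed, with 1.15 and 1.87 CPM against 20.3 and 11.9 (log2 difference -3.44, adjusted p = 4.59e-13).

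On chromosome 8, regions at chr8:3016802-3017538 and chr8:3088238-3089390 were both lower in the SMARCA4 knockout route. The first held 1.15 and 0.401 CPM against 20.9 and 10.9 (log2 difference -4.24, SE 0.39), and the second 1.86 and 2.54 against 34.1 and 21 (-3.65, SE 0.32). Both sat well above the SMARCA4 knockout route in wild type, at 14.3 and 18.8 CPM for the first and 21.5 and 22.0 for the second. At chr18:69900169-69900843 the difference was -3.80 (SE 0.41), from 0.796 and 0.936 CPM against 15.9 and 8.45. The other regions among the 10 with the strongest fall were chr1:104733150-104734040, chr3:182413-183158, chr4:29567751-29568669 and chr10:20431095-20431782, with differences from -3.52 to -3.18. Of the 10, 9 had been called lower in the SMARCA4 single knockout only and 1, on chromosome 3, in both single knockouts, classes that hold 18925 and 1189 of the 145617 regions. These calls use the mean of SMARCA4 clones 4 and 6. At chr11:16841737-16842452 the call rests on clone 6, since clone 4 (15.4 and 18.9 CPM) was not below wild type (15.5 and 11.4).

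Regions more accessible in the SMARCA4 knockout route led with chromosome 21, which held 5 of the 10 strongest and 1321 of the 145617 regions tested. All of the 5 but chr21:16288723-16289543 lie in 1 stretch, from 20 to 25 Mb. That stretch had a median of -0.48 in the ARID2 single knockout against wild type, so they may not be separate cases. At chr21:23448655-23449293, the SMARCA4 knockout route held 10.1 and 5.88 CPM and the ARID2 knockout route 0.399 and 0.437, a log2 difference of 4.15 (SE 0.52, adjusted p = 1.46e-09). Wild-type control libraries held 8.29 and 8.36 CPM and the wild-type double knockdown 11.8 and 8.32, so the ARID2 knockout route was the low one. At chr21:22033472-22035322 the same order held, with 55.2 and 31.7 CPM in the SMARCA4 knockout route, 3.39 and 7.14 in the ARID2 knockout route and 36.5 and 37.6 in wild type. The routes differed there by 2.93 (SE 0.28, adjusted p = 8.47e-15). The third of this kind, chr21:23434714-23435427, held 10.7 and 8.02 CPM against 0.797 and 1.60. These 3 regions had been called lower in the ARID2 single knockout only, as had 395 of the 145617 regions.

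Other regions were high in the SMARCA4 knockout route itself. At chr2:79620759-79621416, that route held 28.2 and 14.7 CPM, the ARID2 knockout route 2.59 and 2.19, and the wild-type double knockdown 2.56 and 2.51 (log2 difference between routes 3.16, SE 0.39). At chr5:50960321-50961455 the values were 27.1 and 13.6 CPM against 1.79 and 4.52, with 2.63 and 2.96 in wild type. The region chrX:114021436-114022064 held 19.3 and 10.6 CPM against 2.39 and 2.62. All 3 had been called higher in the SMARCA4 single knockout only, by the mean of its clones, as had 11138 of the 145617 regions. At chr2:79620759-79621416 that call rests on clone 6, since clone 4 (4.96 and 5.56 CPM) was near wild type (3.88 and 4.42). At chr3:68981452-68982081, which the single knockouts moved in opposite directions, the routes stood at 24.8 and 16.6 CPM against 1.79 and 5.39, with wild type between them at 6.63 and 5.66. Another such region, chr21:16288723-16289543, held 14.9 and 11.0 CPM against 1.59 and 2.04. The remaining regions among the 10 were chr21:21827738-21828282 (log2 difference 3.09) and chr11:39683514-39684015 (2.86).

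**Figure D1:**
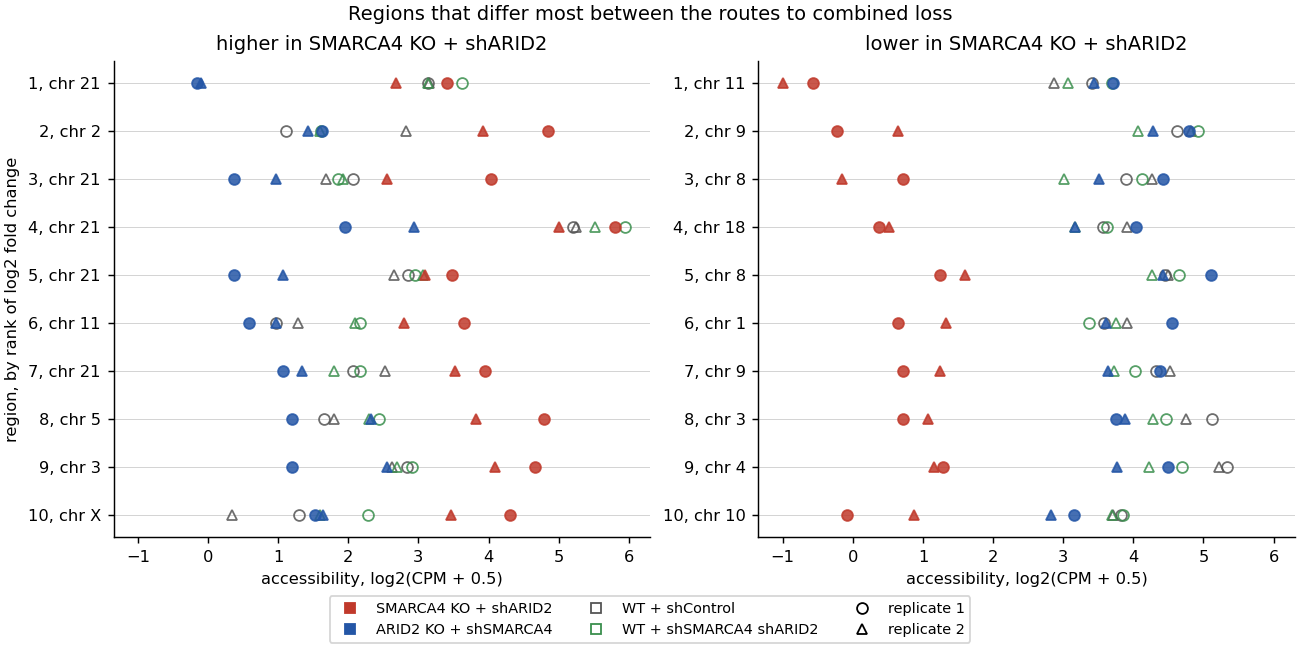
Accessibility (x axis, log2 of CPM plus 0.5) of the 10 regions with the strongest rise (left) and the 10 with the strongest fall (right) in the SMARCA4 knockout route (label SMARCA4 KO + shARID2) against the ARID2 knockout route (ARID2 KO + shSMARCA4), with wild-type control and wild-type double knockdown as open symbols and 1 symbol per library. In the right panel the wild-type libraries lie near or above the ARID2 knockout route, and in the left panel they lie near either route or between them, depending on the region.

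Most regions that separated the routes lay on the same side before the second subunit was knocked down. The same lines with control knockdown differed at 15260 regions (10.5% of those tested), 8649 lower (5.94%) and 6611 higher (4.54%) in the SMARCA4 knockout line. These libraries are not among those of the direct comparison. All 20 regions named above were called in the same direction between the lines. Of the 2671 regions lower in the SMARCA4 knockout route, 2537 (95.0%) had the same sign between the lines and 1703 (63.8%) were also called there, with a median of -1.20 between the lines and -1.38 between the routes. Of the 813 higher regions, 710 (87.3%) had the same sign and 373 (45.9%) were called. Over all regions 58.0% had the same sign. Opposite calls were few, 5 of the lower and 3 of the higher regions.

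The split of the line comparison moved with the settings. With library size as the only scaling it was 11176 lower and 4169 higher, with cyclic loess offsets 7968 and 2737, and without the block 5110 and 1004 (6114 in all). Leaving out any 1 of its 4 libraries left 5466 to 9820 calls. Between the routes, the lower calls stayed the majority under every setting tried, at 66.2% to 83.1%.

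Read in the other direction, fewer regions differed after the second loss. The 8649 regions lower in the SMARCA4 knockout line had a median of -1.46 between the lines and -0.66 between the routes, where 1703 (19.7%) were called lower. The 6611 regions higher in that line had a median of 0.90 between the lines and 0.11 between the routes, and 373 (5.64%) were called higher. These regions were chosen on the line comparison itself, so the same was read from the single knockouts, whose libraries neither comparison used. Among the single knockouts, 25312 of 145532 regions (17.4%) differed between the SMARCA4 and ARID2 knockouts, 16167 lower (11.1%) and 9145 higher (6.28%) in the former (19388 and 6266 with library size only). The 1144 regions more than 4-fold lower in the SMARCA4 knockout had a median of -1.54 between the lines and -0.91 between the routes. At the 17156 regions with a knockout difference of 0.5 to 1, the medians were 0.36 and 0.08, and at the 167 regions above 2 they were 1.23 and 1.08. Across regions of above-median accessibility, the knockout difference correlated with the line difference at r = 0.723 (Spearman's rho 0.659) and with the route difference at r = 0.474 (rho 0.366). Line and route differences correlated at r = 0.511 (rho 0.391). These are descriptions across regions, which share libraries and are not independent replicates.

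**Figure D2:**
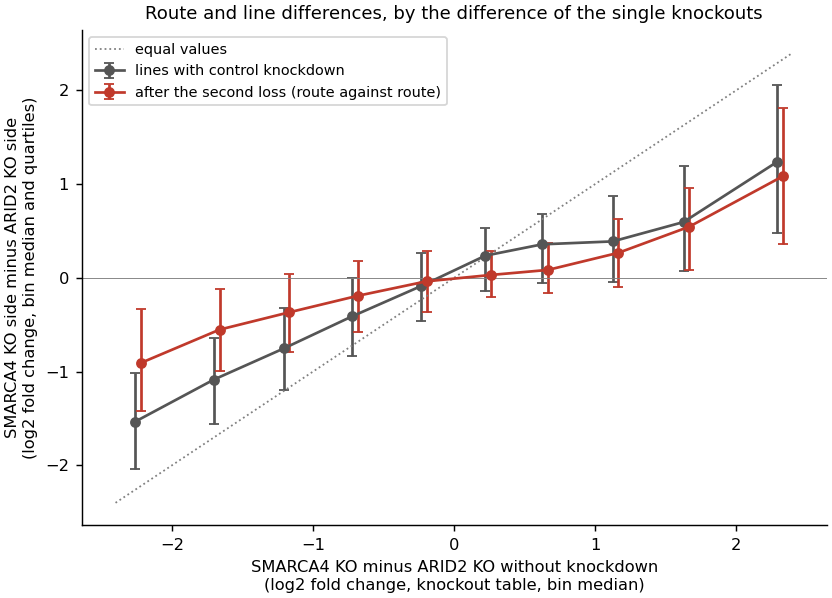
Log2 difference between the lines with control knockdown (grey) and between the routes (red) on the y axis, in bins of the log2 difference between the SMARCA4 and ARID2 knockouts without knockdown on the x axis. Points are bin medians and bars run between quartiles, and the route medians are nearer 0 than the line medians in every bin.

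The clones of the single knockouts bear on a few of the leading regions. At chr11:16841737-16842452, the region with the deepest fall, SMARCA4 clone 4 held 15.4 and 18.9 CPM and clone 6 held 0.224 and 0.221, with 13.6 and 12.3 in the ARID2 knockout and 15.5 and 11.4 in wild type. The SMARCA4 knockout route, at 0.177 and 0, was thus at the level of clone 6 there and not of clone 4. At chr2:79620759-79621416 clone 6 was also the one apart, at 24.2 and 30.7 CPM against 4.96 and 5.56 in clone 4 and 5.69 and 4.65 in the ARID2 knockout. At chr11:39683514-39684015 clone 6 held 4.04 and 3.86 CPM and clone 4 held 1.61 and 1.00, with 12.0 and 6.42 in the SMARCA4 knockout route. At the 68 regions with clone 6 at least 4-fold above clone 4, that route had 7 calls higher and 6 lower. At the 25 regions with clone 6 at least 4-fold below, it had 0 higher and 5 lower. Which clone the knockdown libraries came from was not tested. At the other 9 of the 10 lower regions both clones were low, with 3.81 CPM as their highest library. Over all 2670 lower regions found in the knockout table, 92.2% in clone 4 and 92.7% in clone 6 lay below the ARID2 knockout, with medians of -1.01 and -0.99. Of the 813 higher regions, 74.7% in clone 4 and 78.7% in clone 6 lay above it, against 50.1% and 50.3% of all regions.

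Grouped by what each single knockout did against wild type, regions lower in the SMARCA4 knockout only made up most of the lower calls. Of 18925 regions lower in the SMARCA4 knockout only, 1780 (9.41%) were called lower and 35 (0.185%) higher in the SMARCA4 knockout route, against 1.83% lower and 0.558% higher calls over all regions. Their median difference was -0.39, with -0.57 in the pair of replicate 1 and -0.17 in that of replicate 2. It was -0.20 without replicate 1 of the SMARCA4 knockout route and -0.25 without replicate 1 of the ARID2 knockout route. Relative to the mean of wild-type control, this class stood at -1.16 and -0.96 in the SMARCA4 knockout route and at -0.59 and -0.77 in the ARID2 knockout route. In the ARID2 knockout line with control knockdown it stood at -0.15 and -0.44, in the SMARCA4 knockout line with control knockdown at -1.05 and -1.01, and in the wild-type double knockdown at -0.70 and -0.68. The ARID2 knockout route thus came to the level of the double knockdown, and both libraries of the SMARCA4 knockout route lay lower, without overlap.

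Regions lower in the ARID2 knockout only were fewer and differed the other way. Of 395 regions lower in the ARID2 knockout only, 28 (7.09%) were called higher and 2 (0.506%) lower in the SMARCA4 knockout route, against 0.558% higher and 1.83% lower calls over all regions, with a median of 0.27. Relative to wild type they stood at -0.35 and -0.45 in the SMARCA4 knockout route and at -0.74 and -0.61 in the ARID2 knockout route, while the SMARCA4 knockout line with control knockdown stood at -0.20 and -0.13. Of 1189 regions lower in both knockouts, 94 (7.91%) were called lower and 10 (0.841%) higher, with a median of -0.24. These stood at -1.75 and -1.41 in the SMARCA4 knockout route, -1.36 and -1.28 in the ARID2 knockout route and -0.92 and -0.91 in the double knockdown. Both routes lay below the double knockdown there, without overlap. Without replicate 1 of the SMARCA4 knockout route the median difference of this class was 0.010, so its sign rested on that library.

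Regions that were higher in a single knockout showed smaller differences or fewer members. Of 11138 regions higher in the SMARCA4 knockout only, 326 (2.93%) were called higher and 37 (0.332%) lower, against 0.558% and 1.83% over all regions, with a median of 0.07. The pairs disagreed, at 0.22 and -0.08, and without replicate 1 of the SMARCA4 knockout route the median was -0.071. Between the lines with control knockdown the same class had a median of 0.55. Of 472 regions higher in both knockouts, 52 (11.0%) were called higher and 13 (2.75%) lower, with a median of 0.34 (0.39 and 0.18 in the pairs). That median was 0.12 without replicate 1 and 0.51 without replicate 2 of the SMARCA4 knockout route, and 0.50 without replicate 1 of the ARID2 knockout route. Of 438 regions higher in the ARID2 knockout only, 38 (8.68%) were called lower and 4 (0.913%) higher, with a median of -0.09, which was 0.073 without replicate 1 of the ARID2 knockout route. Among the 112760 regions called in neither knockout, 1025 (0.909%) were called between the routes. The 106 regions that the single knockouts moved in opposite directions held the highest share of calls among these classes, 39 of them (36.8%, against 2.39% over all regions), 20 lower and 19 higher.

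**Figure D3:**
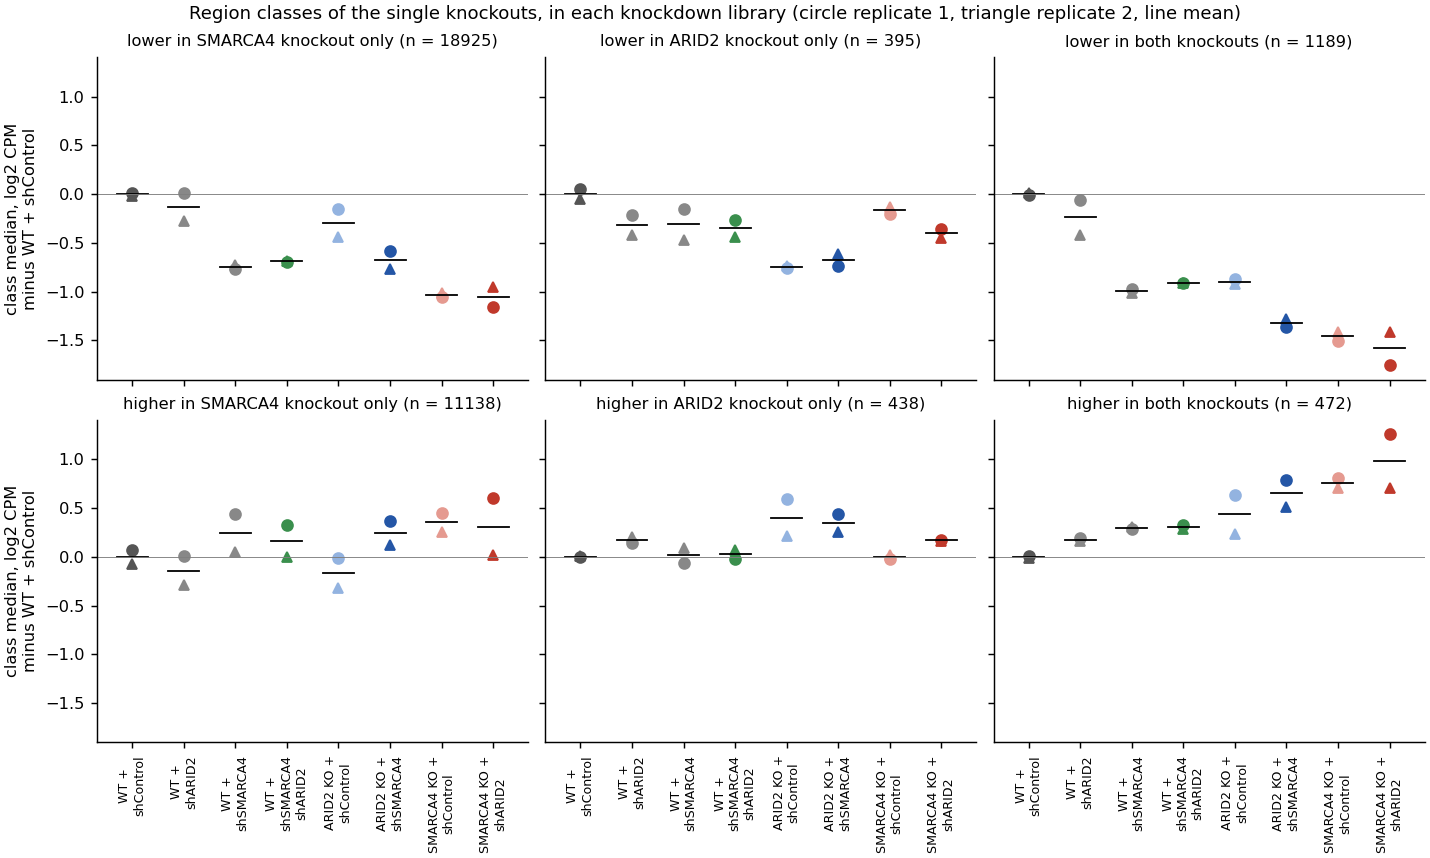
Median log2 CPM of each region class, minus the mean of wild-type control knockdown (y axis), in each of the 16 knockdown libraries (x axis, by group), with circles for replicate 1, triangles for replicate 2 and a line at the mean. In the class lower in the SMARCA4 knockout only, the 4 libraries of SMARCA4 knockout cells stand lowest, between -1.16 and -0.96, and in the class lower in the ARID2 knockout only, the 4 libraries of ARID2 knockout cells stand lowest, between -0.76 and -0.61.

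**Figure D4:**
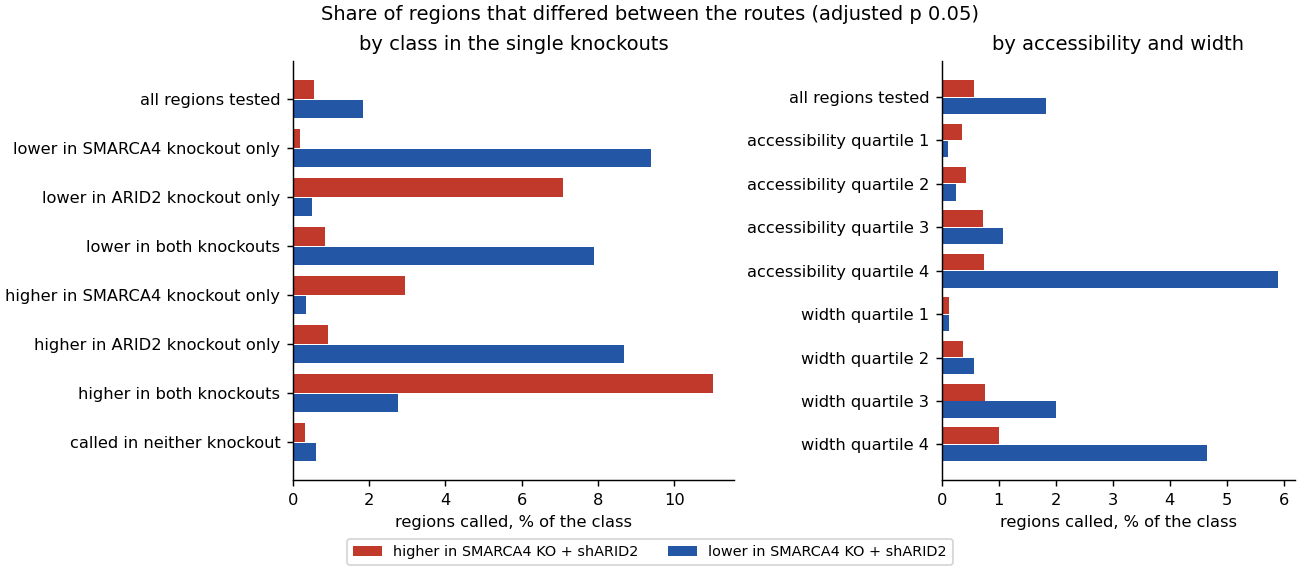
Share of regions called higher (red) or lower (blue) in the SMARCA4 knockout route against the ARID2 knockout route (x axis, percent of the class), by class in the single knockouts (left) and by quartile of accessibility and of width (right). Over all regions the shares are 0.558% and 1.83%, in the class lower in the SMARCA4 knockout only the lower calls reach 9.41%, and in the top accessibility quartile they reach 5.89%.

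The second loss was called at more regions in the ARID2 knockout line than in the SMARCA4 knockout line. Knockdown of ARID2 in SMARCA4 knockout cells was called at 64 regions (0.044%), 58 higher (0.0398%) and 6 lower (0.00412%). Knockdown of SMARCA4 in ARID2 knockout cells was called at 4172 regions (2.87%), 2405 higher (1.65%) and 1767 lower (1.21%). That split turned with library size only (1527 higher, 2954 lower) and with cyclic loess offsets (781 and 1894), so no direction is given for it. Without the block the counts were 0 and 284. At an unadjusted p under 0.05 with the block, 11591 and 22475 regions passed, and DESeq2 called 54 and 3566. Leaving out single libraries left 0 to 224 and 446 to 2547 calls, the fewest without replicate 1 of the SMARCA4 knockout route and without replicate 1 of the ARID2 knockout line with control knockdown. Among the 20 regions named above for the routes, none was called for either second loss. At shares of 0.044% and 2.87% over all regions, few or none would be called among 20.

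Whether the route difference departed from the line difference was tested as an interaction, which equals the first minus the second. It was called at 228 regions (0.157%), 133 positive (0.0913%) and 95 negative (0.0652%). At the 133 positive regions the median was -1.90 between the lines and 0.48 between the routes, and at the 95 negative ones 1.26 and -0.51. These regions were chosen on the gap between these same comparisons, so a gap between the medians is built into the choice. SMARCA4 knockdown in the ARID2 knockout line was called lower at 98 of the 133 and higher at 86 of the 95. Over all regions these shares were 1.21% and 1.65%. That test shares libraries with the interaction and enters it with the opposite sign, so the direction was largely set by the choice. All 133 and all 95 moved against the interaction. ARID2 knockdown in the SMARCA4 knockout line was called at 9 and 1 of them, against 0.044% of all regions. Between the routes themselves, 112 of the 133 and 78 of the 95 were not called. Of the rest, 20 and 17 were called with the sign of the interaction and 1 and 0 with the other sign. Over all regions 2.39% were called between the routes. Without the block the interaction was called at 2 regions. It was called at 549 regions with library size only (443 positive, 106 negative), at 432 with cyclic loess offsets (360 and 72) and at 214 with RLE scaling (152 and 62). Without replicate 1 of the ARID2 knockout line with control knockdown 43 were left, and without replicate 1 of the SMARCA4 knockout route there were 1004.

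The clearest interaction was at chr10:121687715-121688416, which opens when SMARCA4 is lost. It held 4.42 and 1.88 CPM in the ARID2 knockout line with control knockdown and 40.1 and 29.1 in the ARID2 knockout route. In the SMARCA4 knockout line it held 21.2 and 19.3 CPM with control knockdown and 30.0 and 10.6 with ARID2 knockdown. The interaction was -3.63 (SE 0.41, adjusted p = 4.87e-10), the line difference 2.76 and the route difference -0.87 (SE 0.25, adjusted p = 0.0333). At chr4:39666464-39667303 the ARID2 knockout line rose from 5.6 and 4.85 CPM to 45.0 and 35.0, and the SMARCA4 knockout line held 45.8 and 37.3 before and 77.5 and 29.4 after. There the line difference of 3.00 became a route difference of 0.34 (SE 0.23, adjusted p = 0.687). Wild-type cells with SMARCA4 knockdown held 39.0 and 21.5 CPM at the first region and 58.5 and 30.1 at the second, against 4.00 and 2.57, and 5.46 and 4.76, with control knockdown. In the ARID2 knockout route both regions were thus near the levels of the other groups without SMARCA4.

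Some regions that close without SMARCA4 gave the opposite sign. At chr2:194132121-194132946 the ARID2 knockout line held 10.0 and 7.36 CPM with control knockdown and 1.40 and 0.728 with SMARCA4 knockdown, and the SMARCA4 knockout line 0.624 and 1.48, then 1.5 and 2.67. The interaction was 4.02 (SE 0.67, adjusted p = 0.000398), and the routes differed by 0.97 (SE 0.52, adjusted p = 0.512). At chr9:76970047-76970640 the ARID2 knockout route fell to 0.598 and 0.437 CPM, below the 3.63 and 1.74 of the SMARCA4 knockout route, a route difference of 2.4 (SE 0.60, adjusted p = 0.00824) with no call between the lines (adjusted p = 0.109). The region chr13:26597615-26598284, also of positive sign, had been called in neither single knockout. There it was the SMARCA4 knockout line that moved, from 1.5 and 1.21 CPM to 6.19 and 5.88 with ARID2 knockdown. The regions chr2:194132121-194132946 and chr10:121687715-121688416 were the ones also called without the block.

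**Figure D5:**
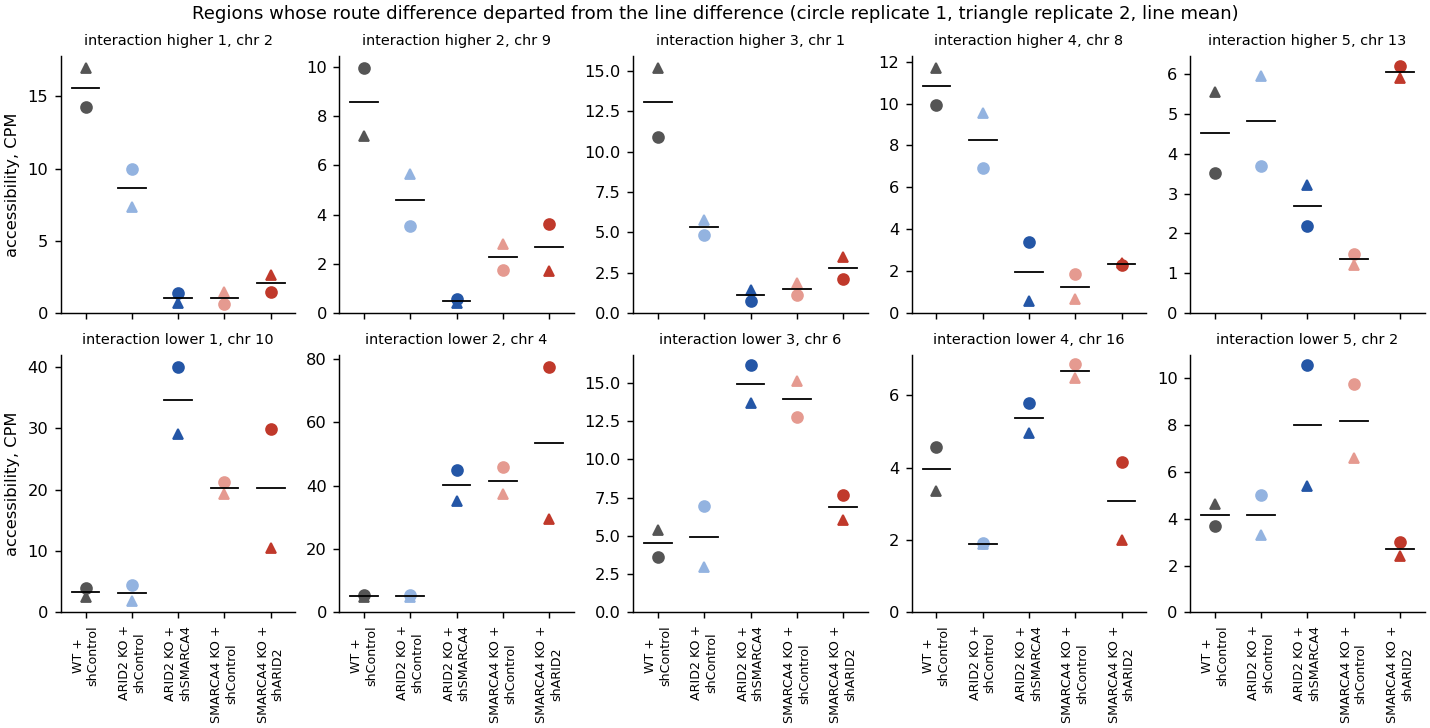
Accessibility in CPM (y axis) of the 5 regions with the strongest positive interaction (top) and the 5 with the strongest negative one (bottom), in wild-type control, each knockout line with control knockdown and each route (x axis), with circles for replicate 1, triangles for replicate 2 and a line at the mean. At the chromosome 10 region the ARID2 knockout line goes from 4.42 and 1.88 with control knockdown to 40.1 and 29.1 after SMARCA4 knockdown, while the SMARCA4 knockout libraries are high with either knockdown.

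Set against wild type, the SMARCA4 knockout route was the one farther away at most regions that separated the routes. At the 2671 lower regions, median accessibility was 13.5 CPM in wild-type control, 10.8 in the ARID2 knockout route, 8.83 in the wild-type double knockdown and 4.00 in the SMARCA4 knockout route. Wild-type control was nearer to the ARID2 knockout route at 86.0% of them, against 54.5% of all regions. It lay above both routes at 1666 (62.4%) and between them at 912 (34.1%), against 35.5% and 20.4% of all regions. At the 813 higher regions it was nearer to the ARID2 knockout route at 61.1%, and lay between the routes at 447 of them (55.0%).

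The other way to the combined loss, double knockdown in wild-type cells, gave more calls against the SMARCA4 knockout route than against the ARID2 knockout route. Against the double knockdown, 4007 regions (2.75%) were called for the SMARCA4 knockout route, 2971 lower (2.04%) and 1036 higher (0.711%). For the ARID2 knockout route 702 (0.482%) were called, 429 lower (0.295%) and 273 higher (0.187%). Without the block these counts were 1988 and 157. Leaving out any 1 library gave 994 to 4370 and 150 to 366, the fewest without replicate 1 of the SMARCA4 knockout route and of the double knockdown, respectively. Both comparisons use the same double knockdown libraries. The typical difference was alike: over all regions the median absolute log2 difference from the double knockdown was 0.295 for the SMARCA4 knockout route and 0.304 for the ARID2 knockout route. The routes were not sequenced to the same depth, and the part of depth in these counts was not tested. At the regions lower between the routes the double knockdown was nearer to the ARID2 knockout route at 75%, and at the higher ones at 65.6%, against 49.3% of all regions.

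Named regions of the 2 comparisons show each pattern. At chr7:47948177-47948800 the SMARCA4 knockout route held 27.0 and 13.1 CPM, the ARID2 knockout route 5.78 and 2.33 and the double knockdown 1.33 and 2.2. At chr5:147018800-147019444 the order was reversed, with 0.796 and 0.802, 2.99 and 5.97, and 16.3 and 15.4 CPM, and both routes were called lower than the double knockdown, by -4.29 (SE 0.40) and -1.77 (SE 0.32). Some regions set both knockout lines apart from wild-type cells. At chr1:198845402-198846155 the routes held 16.4 and 9.90, and 13.4 and 8.30 CPM, against 2.11 and 1.41 in the double knockdown, and at chr7:147207898-147208590 they held 1.33 and 1.07, and 0.797 and 0.874, against 10.9 and 8.16. The routes did not differ beyond their spread at either (adjusted p = 0.841 and 0.884). At chr6:158843514-158844231 the ARID2 knockout route held 22.7 and 15.6 CPM against 3.45 and 3.61 in the SMARCA4 knockout route and 3.34 and 4.08 in the double knockdown. The ARID2 knockout line was high there with control knockdown as well, at 18.0 and 8.61 CPM.

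Calls between the routes gathered at open and wide regions. The top quartile of accessibility in wild-type control, above 7.20 CPM, held 2413 of the 3484 calls, 2145 of them lower, or 5.89% of its regions. In the lowest quartile 129 regions (0.354%) were called higher and 40 (0.110%) lower, against 0.558% and 1.83% over all regions. The widest quartile, from 764 bases, held 2054 calls, or 5.64% of its regions, against 2.39% over all regions. Counts per region are higher in these quartiles, and their part in the shares was not tested.

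Over all regions, 2.39% were called between the routes. Along the genome, chromosome 19 had the fewest calls for its size, 18 of 3408 regions (0.528%), and chromosome 4 the most, 327 of 9637 (3.39%). Chromosome 21, with 1321 regions, was the one chromosome with more higher than lower calls, 22 of its 30. Its shares were 1.67% higher and 0.606% lower, against 0.558% and 1.83% over all regions. The stretch of chromosome 21 from 20 to 25 Mb, with 101 regions, was the most shifted of 588 windows of 5 Mb. It had a median of 0.40 between the routes (0.36 and 0.39 in the pairs) and 11 calls, all of them higher. Its median was 0.21 between the lines with control knockdown and 0.31 between the single knockouts. The same stretch had a median of -0.48 in the ARID2 single knockout and -0.08 in the SMARCA4 single knockout against wild type. The lowest window, 140 to 145 Mb of the X chromosome, had a median of -0.36 over 133 regions (-0.66 and -0.10 in the pairs), with 16 calls, all lower. Its median was -0.88 in the SMARCA4 single knockout and -0.10 in the ARID2 single knockout. No window passed a shift of 0.5, and no run of 5 neighbouring regions was empty in 1 route.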

How the data were processed

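ATAC-seq libraries of HAP1 cells were analysed from count tables. The deposited values are raw counts of reads in each region, without scaling for depth by the authors. Per the submitters' processing notes, the build was hg19 and the tools were MACS2 2.1.1.20160309, Bowtie2 2.2.4 and Picard 1.118. How regions were merged is not given in the sources used here. Groups came from the labels. The knockdown table has 16 libraries and 145730 regions, and that of the knockouts has 56 libraries and 145536 regions. A further 2 per-library columns that the labels do not list were not used, and 2 wild-type samples without a matching column were not analysed here.

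The main test was edgeR 4.0.16 in R 4.3.3, by its quasi-likelihood method (TMM, the default expression filter, Benjamini-Hochberg adjustment over all tested regions, 2-sided). The knockdown fit held all 16 libraries in 8 groups with the replicate number as a block (7 residual degrees of freedom), and the knockout fit 1 coefficient per clone and wild-type set (28 degrees). Differences of single libraries use log2 CPM with a prior count of 2. Regions are named if called, more accessible than the median region and without overlap between the groups, in order of log2 fold change: 10 per direction for the routes, 5 for the interaction (both pairs in its direction) and 3 for each route against the double knockdown. The alternatives were no block, RLE, library size only, cyclic loess (limma 3.58.1), no filter, DESeq2 1.42.0, a 2-fold threshold, the 4 route libraries alone, single SMARCA4 clones and leaving out each library. The tests were also run on simulated counts drawn from the fitted model with its replicate block. That check cannot speak to how the calls depend on the block or on single libraries. The groups, lists and comparisons were chosen with earlier results of these data known, and the comparisons of each second loss and of the clones were added after seeing the data.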

Additional observations from a re-analysis of the deposited data

Results flagged for a closer look

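The interaction test, which asks whether the route difference departs from the difference of the same lines with control knockdown, passed at 228 regions. Of the regions named for it, those with a positive interaction were chr2:194132121-194132946 (4.02), chr9:76970047-76970640 (3.40), chr1:191631603-191632412 (3.07), chr8:124782333-124782834 (3.03) and chr13:26597615-26598284 (2.94), all on the log2 scale. Those with a negative one were chr10:121687715-121688416 (-3.63), chr4:39666464-39667303 (-2.66), chr6:79552728-79553516 (-2.63), chr16:71916250-71916756 (-2.63) and chr2:66918689-66919248 (-2.49). Each was singled out because the second loss moved the knockout lines by different amounts.

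At chr6:79552728-79553516 the ARID2 knockout line rose from 6.92 and 2.98 CPM to 16.1 and 13.7 with SMARCA4 knockdown, and the SMARCA4 knockout line went from 12.7 and 15.1 to 7.69 and 6.02 with ARID2 knockdown. At chr8:124782333-124782834 the replicates of the ARID2 knockout route stood apart, at 3.39 and 0.583 CPM. At chr2:66918689-66919248 the SMARCA4 knockout line fell from 9.73 and 6.6 to 3.01 and 2.41 CPM with ARID2 knockdown (log2 fold change -1.58, adjusted p = 0.0457 in edgeR). Without the block, 8 of these 10 regions were no longer called, at adjusted p from 0.11 to 0.242 in edgeR.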

How the results depend on the processing

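Directions of the 20 regions named for the routes, and their calls, held under every alternative tried (largest adjusted p 0.0214). Pairing of replicate numbers comes from the titles only: deviations of same-numbered libraries correlated at 0.0622 to 0.438 over 28 pairs of groups (median 0.265, 0.313 for the routes), and 25 were above 0.1. No replicate block gave 1261 regions between the routes (74.5% of them lower), 6114 between the lines, 2 for the interaction, 1988 and 157 for the SMARCA4 and ARID2 knockout routes against double knockdown, and 0 and 284 for ARID2 and SMARCA4 knockdown as second loss. The knockout comparison, fitted without a block, gave 26088 with a replicate block. The lower share between the routes was 71.5% with RLE, 73.0% with library size only, 71.9% with cyclic loess and 73.7% in the 4 libraries alone. Library size only gave 549 interactions and 98 regions for ARID2 knockdown, and cyclic loess 432 and 156, with 2675 for SMARCA4 knockdown. At least 2-fold, the knockout comparison kept 13293.

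Leaving out 1 library gave 838 to 3334 regions between the routes (66.2% to 83.1% lower), 5466 to 9820 between the lines, 43 to 1004 interactions, 994 to 4370 and 150 to 366 for the SMARCA4 and ARID2 knockout routes against double knockdown, 0 to 224 and 446 to 2547 for the ARID2 and SMARCA4 second loss, and 14975 to 23225 for the knockouts (14975 without ARID2 clone 9 replicate 1). Where a group was left with 1 library, it was assumed to vary like the other groups. Class medians changed sign at 0.010 (lower in both knockouts) and -0.071 (higher in the SMARCA4 knockout only) without SMARCA4 knockout route replicate 1, at 0.073 (higher in the ARID2 knockout only) without ARID2 knockout route replicate 1, and at -0.013 (called in neither) without SMARCA4 knockout route replicate 2. Their leave-one-out ranges were -0.47 to 0.010, -0.071 to 0.20, -0.22 to 0.073 and -0.013 to 0.054. The cause was not tested. The planned run without shifted windows was not needed, since no window passed the shift. Depth limits regions near 0 counts, where fitted folds depend on the prior count.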

Other observations

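Regions that differed at least 4-fold between the SMARCA4 knockout clones were looked at in the knockdown libraries, a choice made after the values were seen. At the 68 regions with clone 6 above clone 4, the median difference was -0.08 between the routes and 0.01 between the lines, and 7 were called higher and 6 lower in the SMARCA4 knockout route. At the 25 regions with clone 6 below clone 4, the medians were -0.28 and -0.45, and 5 were called lower and 0 higher. The shares called, 19.1% and 20%, compare with 2.38% of the other regions. These are counts of few regions and were not tested.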
